A study of Mus musculus with 6 samples.

Results

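Cxcr2-positive neutrophils were examined in mouse leukaemic bone marrow by droplet single-cell 3′ RNA sequencing. They were chosen by transcripts: a barcode in which 500 or more genes were seen and mitochondrial counts made up 10% or less, with at least 1 Cxcr2 molecule, at least 3 molecules of Retnlg, Mmp9, Ly6g and Il1b together, and none of the cycle genes Mki67 and Top2a. This took 4697 of 44672 kept cells, or 10.5%, over 6 libraries. Molecules were counted by unique molecular identifiers (UMIs). A library was 1 sample, each group had 1 library, and the labels do not say how many mice a library came from.

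The 4 MA9 libraries (leukaemia initiated with MLL-AF9) were labelled Shp-1 Δ/Δ treated with AraC + Dox, Shp-1 f/f treated with AraC + Dox, Shp-1 Δ/Δ given PBS and Shp-1 f/f given PBS. Shp-1 is the tyrosine phosphatase encoded by Ptpn6, and f/f denotes its floxed form and Δ/Δ its deleted form. AraC is cytarabine, and the labels call AraC + Dox chemotherapy. The 2 HM libraries (leukaemia initiated with Hoxa9 and Meis1) were labelled AraC + Dox and PBS, and their titles give Shp-1 f/f while their genotype field names Hoxa9-Meis1 alone. All of the groups thus carry a leukaemia oncogene, and none is healthy marrow. The sources used here name neither the Cre, the age of the animals nor the deleted exons.

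Neutrophils leave the marrow as postmitotic cells that have already packed their granules. Primary granule proteases are transcribed in promyelocytes, secondary granule proteins such as Camp, Ngp and Ltf in myelocytes and metamyelocytes, and gelatinase-granule genes such as Mmp9 later still. Cxcr2, the receptor for the chemokines Cxcl1 and Cxcl2, is acquired last and draws the cells out of the marrow. Mature neutrophils also transcribe cytokine genes under NF-kB control, among them Il1b and Cxcl2, and respond to interferon with genes such as Ifit1, Ifit3, Isg15 and Rsad2.

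The genotype labels were checked first on Ptpn6. Over all kept cells of the MA9 libraries it stood at 43.6 CPM (counts per 1000000 UMIs) in Δ/Δ AraC + Dox, 57.7 CPM in f/f AraC + Dox, 172 CPM in Δ/Δ PBS and 186 CPM in f/f PBS. In HM it stood at 113 CPM with AraC + Dox and 135 CPM with PBS. In MA9 its level thus followed the treatment label more than the Shp-1 label. In the Cxcr2-positive neutrophils alone it stood at 98.4 CPM (Δ/Δ AraC + Dox), 167 CPM (f/f AraC + Dox), 185 CPM (Δ/Δ PBS) and 269 CPM (f/f PBS). A 3′ tag outside the deleted exons checks nothing, and since those exons are not given in the sources used here, the deletion could not be checked. Every direction drawn between MA9 libraries below is therefore a direction between the libraries labelled so.

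The libraries differed in depth and quality. Barcodes numbered 5364 to 12474 a library, and 87.2% to 94.8% of them were kept in 5 libraries but 22.1% in the library labelled HM PBS. The Cxcr2-positive neutrophils held 447254 to 11072234 UMIs a library, and their median was 2358.5 to 6473 UMIs a cell. Between any 2 MA9 libraries 18 to 27 kept barcodes were shared, and 6 between the 2 HM libraries, of which 1 was a Cxcr2-positive neutrophil in both. With 1 library per group a single pair of libraries allows no test, so its ratios are given with exact 95% intervals that cover counting error only. Fits over several pairs at once follow the pairs.

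The share of Cxcr2-positive neutrophils was low in MA9 marrow and high in HM marrow. Among MA9 cells it was 1.23% with Δ/Δ AraC + Dox (95% interval 1.02 to 1.47, Clopper-Pearson), 3.63% with f/f AraC + Dox (3.27 to 4.02), 5.68% with Δ/Δ PBS (5.22 to 6.17) and 9.28% with f/f PBS (8.67 to 9.91). Among HM cells it was 34.5% with AraC + Dox (33.1 to 35.9) and 46.4% with PBS (44.5 to 48.3). In all 3 pairs by treatment the AraC + Dox library held the smaller share of kept cells, and in both MA9 pairs by genotype the Δ/Δ library did. A rule on UMIs finds more cells where cells are deep. With each cell thinned to 1000 UMIs the shares were 0.821%, 1.73%, 3.56% and 4.32% in the MA9 libraries in the same order, 14.4% in HM AraC + Dox and 30.8% in HM PBS. The order of the libraries stayed as it was. For the HM pair the direction depended on which barcodes were counted: Cxcr2-positive neutrophils made up 30.1% of all barcodes in HM AraC + Dox and 10.3% in HM PBS, where most barcodes did not pass the quality limits. With a mitochondrial limit of 20% instead of 10% it also turned, to 33.5% of kept cells in HM AraC + Dox against 26.9% in HM PBS.

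**Figure D1:**
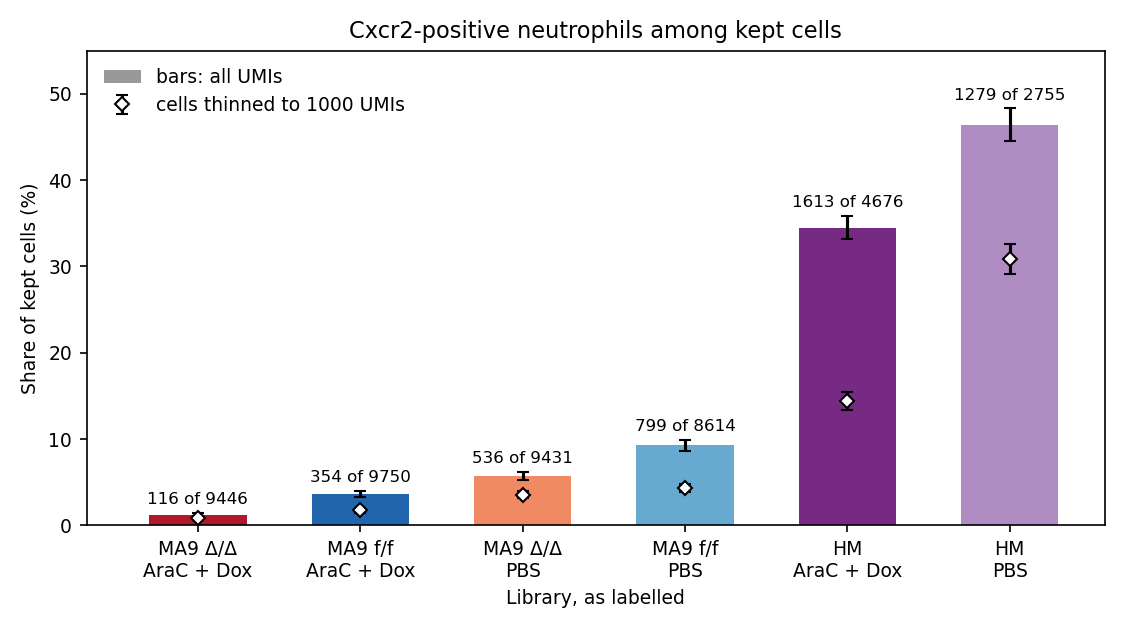
Share of kept cells (%) that were Cxcr2-positive neutrophils, 1 bar per library, with exact 95% intervals for counting error; diamonds give the share after each cell was thinned to 1000 UMIs. The bars run from 1.23% in MA9 Δ/Δ AraC + Dox to 46.4% in HM PBS.

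The rule genes themselves varied between libraries, and since they chose the cells their values are a description. Cxcr2 stood at 803, 544, 942 and 579 CPM in MA9 Δ/Δ AraC + Dox, f/f AraC + Dox, Δ/Δ PBS and f/f PBS, at 416 CPM in HM AraC + Dox and at 793 CPM in HM PBS. Retnlg, a resistin-like protein of late neutrophils, was far higher in HM, at 30005 CPM with AraC + Dox and 38420 CPM with PBS, than in MA9, where it lay between 2819 and 12857 CPM. Mmp9 was the steadiest of the 4 marker genes, at 1625 to 2245 CPM, and Ly6g lay between 624 and 1096 CPM. Il1b, which encodes the cytokine interleukin-1β, stood at 150, 107, 505 and 88.3 CPM in the MA9 libraries in the same order, at 277 CPM in HM AraC + Dox and at 442 CPM in HM PBS. It was thus highest in MA9 Δ/Δ PBS. There 536 cells passed the rule and 475 passed with Il1b left out of it, against 799 and 793 in MA9 f/f PBS. Il1b itself thus chose part of the cells in which it stood highest. Those cells also enter the other values of MA9 Δ/Δ PBS below. A single Cxcr2 UMI carried 24.1% to 42.9% of the cells in a library.

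All cells just inside the edge of the rule came from MA9 libraries, so their values are those of the model as well as of the edge. The 30 cells with 1 Cxcr2 UMI and a marker sum of 3 showed Csf3r, the G-CSF receptor, at 188 CPM and Mmp8, a collagenase, at 99.6 CPM. The 40 cells just outside, with a sum of 2, showed 215 CPM and 42.9 CPM of these genes. Over all Cxcr2-positive neutrophils Csf3r stood at 351 CPM and Mmp8 at 2185 CPM, and by library Mmp8 lay at 665 to 1429 CPM in MA9, 2659 CPM in HM AraC + Dox and 2428 CPM in HM PBS. A further 2808 cells passed the marker sum with no Cxcr2 UMI, and 1555 cells that met the other limits were left out for a cycle gene UMI.

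The label "mature" held less well in some libraries. Camp and Ngp, which encode a cathelicidin and a secondary granule protein made before the cells mature, took a median of 0.078% and 2.49% of a cell's UMIs in MA9 Δ/Δ AraC + Dox and f/f AraC + Dox. In MA9 Δ/Δ PBS the median was 0% and in f/f PBS 2.31%, and it was 0.912% in HM AraC + Dox and 0.361% in HM PBS. Cells with under 0.5% of UMIs in both genes together made up 71.6% and 81.0% of the Cxcr2-positive neutrophils in the 2 MA9 Δ/Δ libraries (AraC + Dox and PBS), but 28.5% and 26.0% in the 2 MA9 f/f libraries in that order. In HM they made up 36.3% with AraC + Dox and 55.7% with PBS. The summed immature markers (Camp, Ngp, Ltf, Lcn2, Chil3, Fcnb and Cebpe) stood at 24816 and 18316 CPM in the Δ/Δ libraries, 69424 and 56706 CPM in the f/f libraries, 38669 CPM in HM AraC + Dox and 25553 CPM in HM PBS. The 5 promyelocyte markers (Mpo, Elane, Prtn3, Ctsg and Ms4a3) ran the other way between genotypes. They summed to 1060 and 793 CPM in the Δ/Δ libraries (AraC + Dox and PBS) and to 660 and 439 CPM in the f/f libraries. In HM they summed to 447 CPM with AraC + Dox and 111 CPM with PBS. The cells are therefore called Cxcr2-positive neutrophils here rather than mature ones. Markers of monocytes and B cells were low in all 6 libraries: the 9 monocyte and macrophage markers summed to 71.3 to 440 CPM and the 5 B cell markers to 0.391 to 51.8 CPM, against 213080 to 339530 CPM for the 8 mature neutrophil markers. The 6 erythroid markers summed to 1584 CPM in MA9 f/f PBS, against 6.71 to 24.2 CPM in the other 5 libraries, and their part in the ratios of that library was not tested.

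Cxcl2, the neutrophil chemokine and ligand of Cxcr2, was highest in HM AraC + Dox. It stood at 747 CPM in MA9 Δ/Δ AraC + Dox, 333 CPM in MA9 f/f AraC + Dox, 1360 CPM in MA9 Δ/Δ PBS and 379 CPM in MA9 f/f PBS. In HM it stood at 2220 CPM with AraC + Dox and 645 CPM with PBS. Both Δ/Δ libraries were above their f/f counterparts, by 1.17 on the log2 scale with AraC + Dox (0.97 to 1.37) and by 1.84 with PBS (1.74 to 1.95). AraC + Dox went with a higher level in HM, by 1.78 (1.73 to 1.84), but not in MA9, where the log2 ratio was -0.87 in Δ/Δ (-1.04 to -0.70) and -0.19 in f/f (-0.34 to -0.041). MA9 Δ/Δ AraC + Dox had 116 Cxcr2-positive neutrophils, and its Cxcl2 value rests on 334 UMIs. In the cells with under 0.5% of their UMIs in Camp and Ngp, the ratios of Δ/Δ over f/f were smaller, -0.062 with AraC + Dox and 0.62 with PBS. After thinning to 1000 UMIs, a Cxcl2 UMI was seen in 33.6%, 17.6%, 45.5% and 22.2% of the MA9 cells in the same order, 49.8% in HM AraC + Dox and 30.1% in HM PBS. In the B-cell-like cells of the same libraries, thinned alike, the share was 1.18% in MA9 Δ/Δ AraC + Dox, 0.8% in MA9 Δ/Δ PBS and 10.6% in HM AraC + Dox.

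Other inflammatory genes did not move as a block. Nfkbia, the NF-kB inhibitor that NF-kB itself induces, stood at 476, 331, 483 and 384 CPM in the MA9 libraries in the same order, at 1485 CPM in HM AraC + Dox and at 241 CPM in HM PBS. It was thus highest in HM AraC + Dox, by a log2 ratio of 2.62 over HM PBS (2.54 to 2.71). Osm, the cytokine oncostatin M, ran the other way, at 72.9 CPM in HM AraC + Dox and 328 CPM in HM PBS (log2 ratio -2.17, -2.29 to -2.05). Ccl3, a chemokine for monocytes, was lower in both Δ/Δ libraries: 127 CPM in Δ/Δ against 266 CPM in f/f with AraC + Dox, and 185 CPM in Δ/Δ against 327 CPM in f/f with PBS. Clec4e, the receptor Mincle, stood at 487 and 461 CPM in the Δ/Δ libraries (AraC + Dox and PBS), 284 and 195 CPM in the f/f libraries, 503 CPM in HM AraC + Dox and 364 CPM in HM PBS. Its differences were below 2-fold in 4 of the 5 pairs, the exception being between Δ/Δ PBS and f/f PBS.

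The interferon genes set HM PBS apart, and their summed list did so in immature neutrophils and monocyte-like cells too (below). Isg15, a ubiquitin-like modifier, stood at 110 CPM in MA9 Δ/Δ AraC + Dox, 16.7 CPM in MA9 f/f AraC + Dox, 65.4 CPM in MA9 Δ/Δ PBS and 24.2 CPM in MA9 f/f PBS. In HM it stood at 253 CPM with AraC + Dox and 1511 CPM with PBS. The same order of models and genotypes was seen for Ifit1, which binds foreign RNA: 49.2, 6.81, 21.4 and 4.03 CPM in the MA9 libraries in the same order, 93.7 CPM in HM AraC + Dox and 390 CPM in HM PBS. Ifit3, a relative of Ifit1, stood at 67.5 CPM in HM AraC + Dox and 648 CPM in HM PBS, and at 0.336 to 9.06 CPM in MA9, where it rests on 1 to 14 UMIs a library. Rsad2, the antiviral enzyme viperin, stood at 78.3, 19.2, 36.9 and 21.2 CPM in the MA9 libraries, 225 CPM in HM AraC + Dox and 792 CPM in HM PBS. Both Δ/Δ libraries were above their f/f counterparts for Isg15, with log2 ratios of 2.71 with AraC + Dox (2.01 to 3.45) and 1.44 with PBS (0.99 to 1.89). Within HM the log2 ratio of AraC + Dox over PBS was -2.58 for Isg15 (-2.64 to -2.51), -3.26 for Ifit3 (-3.38 to -3.15) and -1.82 for Rsad2 (-1.89 to -1.75).

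Promoters of 6 genes that carry both contrasts are shown as RefSeq gives them (GRCm38.p6, from 250 bases before to 50 after the start, on the strand of the gene), with capitals on matches to the NF-kB motif (GGGA, 2 bases of any kind, TTCC) in Cxcl2 and Nfkbia, and to the interferon-stimulated response element (GAAA, 2 bases of any kind, GAAA) in the others; both strands were searched.
Cxcl2, chr5:90903649-90903948, plus strand: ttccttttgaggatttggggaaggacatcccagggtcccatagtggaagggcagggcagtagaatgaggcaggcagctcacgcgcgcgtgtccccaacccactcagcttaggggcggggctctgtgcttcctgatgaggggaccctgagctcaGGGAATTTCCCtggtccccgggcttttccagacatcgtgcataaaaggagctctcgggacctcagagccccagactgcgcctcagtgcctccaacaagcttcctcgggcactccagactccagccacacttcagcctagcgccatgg
Nfkbia, chr12:55492598-55492897, minus strand: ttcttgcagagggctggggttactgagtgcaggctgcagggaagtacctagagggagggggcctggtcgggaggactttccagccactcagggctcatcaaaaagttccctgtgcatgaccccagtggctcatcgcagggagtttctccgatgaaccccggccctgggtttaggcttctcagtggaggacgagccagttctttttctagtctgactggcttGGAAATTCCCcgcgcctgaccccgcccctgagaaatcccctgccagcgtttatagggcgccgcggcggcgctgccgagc
Ifit1, chr19:34640639-34640938, plus strand: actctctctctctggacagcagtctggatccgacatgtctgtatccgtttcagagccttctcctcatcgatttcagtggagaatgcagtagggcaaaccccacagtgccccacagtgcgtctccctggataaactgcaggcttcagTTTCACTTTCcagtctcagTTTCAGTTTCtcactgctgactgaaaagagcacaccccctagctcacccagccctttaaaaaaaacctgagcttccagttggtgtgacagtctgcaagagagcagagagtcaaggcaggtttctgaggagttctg
Ifit3, chr19:34583279-34583578, plus strand: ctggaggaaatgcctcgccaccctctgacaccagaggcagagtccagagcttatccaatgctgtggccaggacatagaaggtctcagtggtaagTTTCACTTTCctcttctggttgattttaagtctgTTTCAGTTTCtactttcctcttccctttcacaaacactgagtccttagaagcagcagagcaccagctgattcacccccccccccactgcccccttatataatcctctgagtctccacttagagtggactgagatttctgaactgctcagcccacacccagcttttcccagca
Isg15, chr4:156200769-156201068, minus strand: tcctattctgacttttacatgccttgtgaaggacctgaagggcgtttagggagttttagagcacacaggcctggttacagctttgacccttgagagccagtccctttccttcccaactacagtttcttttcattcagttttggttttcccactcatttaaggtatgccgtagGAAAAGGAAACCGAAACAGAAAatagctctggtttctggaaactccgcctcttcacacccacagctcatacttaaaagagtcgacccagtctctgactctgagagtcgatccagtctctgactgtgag
Rsad2, chr12:26456403-26456702, minus strand: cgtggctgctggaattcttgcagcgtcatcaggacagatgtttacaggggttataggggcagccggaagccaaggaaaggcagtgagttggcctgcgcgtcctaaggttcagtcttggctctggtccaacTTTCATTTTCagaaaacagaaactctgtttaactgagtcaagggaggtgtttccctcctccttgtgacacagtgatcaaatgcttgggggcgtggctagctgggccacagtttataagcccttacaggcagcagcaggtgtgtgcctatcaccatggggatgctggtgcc

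The capitals in Cxcl2 are 2 overlapping matches that begin at -97 and -96 from the start, and the match in Nfkbia begins at -29. Ifit1 holds matches at -104 and -85, Ifit3 at -156 and -122, Rsad2 at -120, and Isg15 an overlapping run of 3 from -78. Motifs were counted by gene, with a match in any promoter of a gene taken as a match. The interferon motif was in 22 of the 38 interferon-list genes that matched by symbol (57.9%). It was in 1 of 32 inflammatory-list genes (3.13%) and in 1079 of all 27025 genes (3.99%). The NF-kB motif was in 6 of 32 inflammatory-list genes (18.8%), 5 of 38 interferon-list genes (13.2%) and 441 of all genes (1.63%). The Il1b promoter held neither string in this window. A match is a string of letters, not a site shown to be bound.

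Over whole lists, the interferon genes were higher in both libraries labelled Δ/Δ and lower in HM AraC + Dox. With PBS, 28 of the 50 listed genes reached 20 CPM in either library; 17 were at least 2-fold higher in Δ/Δ than in f/f and 0 were lower, and their median log2 ratio was 1.24. Over all 4812 genes at that level the median was 0.16, with 6.26% higher and 3.18% lower. With AraC + Dox, 19 of 32 were at least 2-fold higher in Δ/Δ than in f/f and 0 lower (median 1.16), against 13.4% higher and 2.56% lower of all genes (median 0.31). In HM, 0 of 44 were at least 2-fold higher with AraC + Dox than with PBS and 35 were lower (median -1.94), against 12.2% higher and 10% lower of all genes (median 0.016). The gene that stood against the rest there was Ifi27l2a, a small interferon-induced protein, at 2175 CPM with AraC + Dox and 1257 CPM with PBS. By treatment within MA9 the same list moved little: 6 of 33 genes were at least 2-fold higher in Δ/Δ AraC + Dox than in Δ/Δ PBS and 0 lower (median 0.078), against 4.83% and 3.69% of all genes. Of 18 genes, 4 were higher in f/f AraC + Dox than in f/f PBS and 0 lower (median 0.26), against 1.06% and 2.94% of all genes, whose median was -0.19. A gene could pass the 20 CPM limit in a single library of a pair, and its ratio then had to favour that library. Such genes were not counted apart, here or in the other lists, and all genes met the same limit. Summed without that limit, the interferon list stood at 4854 CPM in Δ/Δ PBS and 1923 CPM in f/f PBS. With AraC + Dox it stood at 5453 CPM in Δ/Δ and 3027 CPM in f/f. In HM it stood at 9403 CPM with AraC + Dox and 18917 CPM with PBS. The height in HM PBS was not particular to the Cxcr2-positive neutrophils. In immature neutrophils (defined below) the sum was 11305 CPM in HM PBS and 6142 CPM in HM AraC + Dox. In MA9 it was 979 to 3549 CPM. In monocyte-like cells it was 17941 CPM in HM PBS (17 cells), 10277 CPM in HM AraC + Dox and 5021 to 6320 CPM in MA9. The lower level with AraC + Dox in HM was thus seen in these cells too, and its cause was not tested.

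The inflammatory list of 38 genes, read without Il1b, showed smaller and mixed differences. With PBS, 7 of 25 measured genes were at least 2-fold higher in Δ/Δ than in f/f and 1 lower (median 0.30), against 6.26% higher and 3.18% lower of all genes. With AraC + Dox, 5 of 27 were higher in Δ/Δ than in f/f and 3 lower (median 0.22), against 13.4% and 2.56% of all genes, whose median was above it. In HM, 9 of 26 were higher with AraC + Dox than with PBS and 4 lower (median 0.56), against 12.2% and 10% of all genes. Within MA9, AraC + Dox against PBS gave 3 higher and 5 lower of 27 in Δ/Δ (median -0.13), against 4.83% and 3.69% of all genes. In f/f it gave 2 of each of 22 (median -0.0095), against 1.06% and 2.94% of all genes. In cells with under 0.5% of their UMIs in Camp and Ngp, the medians of the 2 genotype pairs turned to -0.21 with PBS and -0.48 with AraC + Dox, and that of HM was 1.05. The interferon medians of those cells were 1.17, 0.995 and -1.72 in the same order. The direction of the inflammatory list between genotypes thus depended on which neutrophils were compared, and that of the interferon list did not. Each MA9 library enters 2 of the 4 MA9 pairs, so these pairs share libraries.

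**Figure D2:**
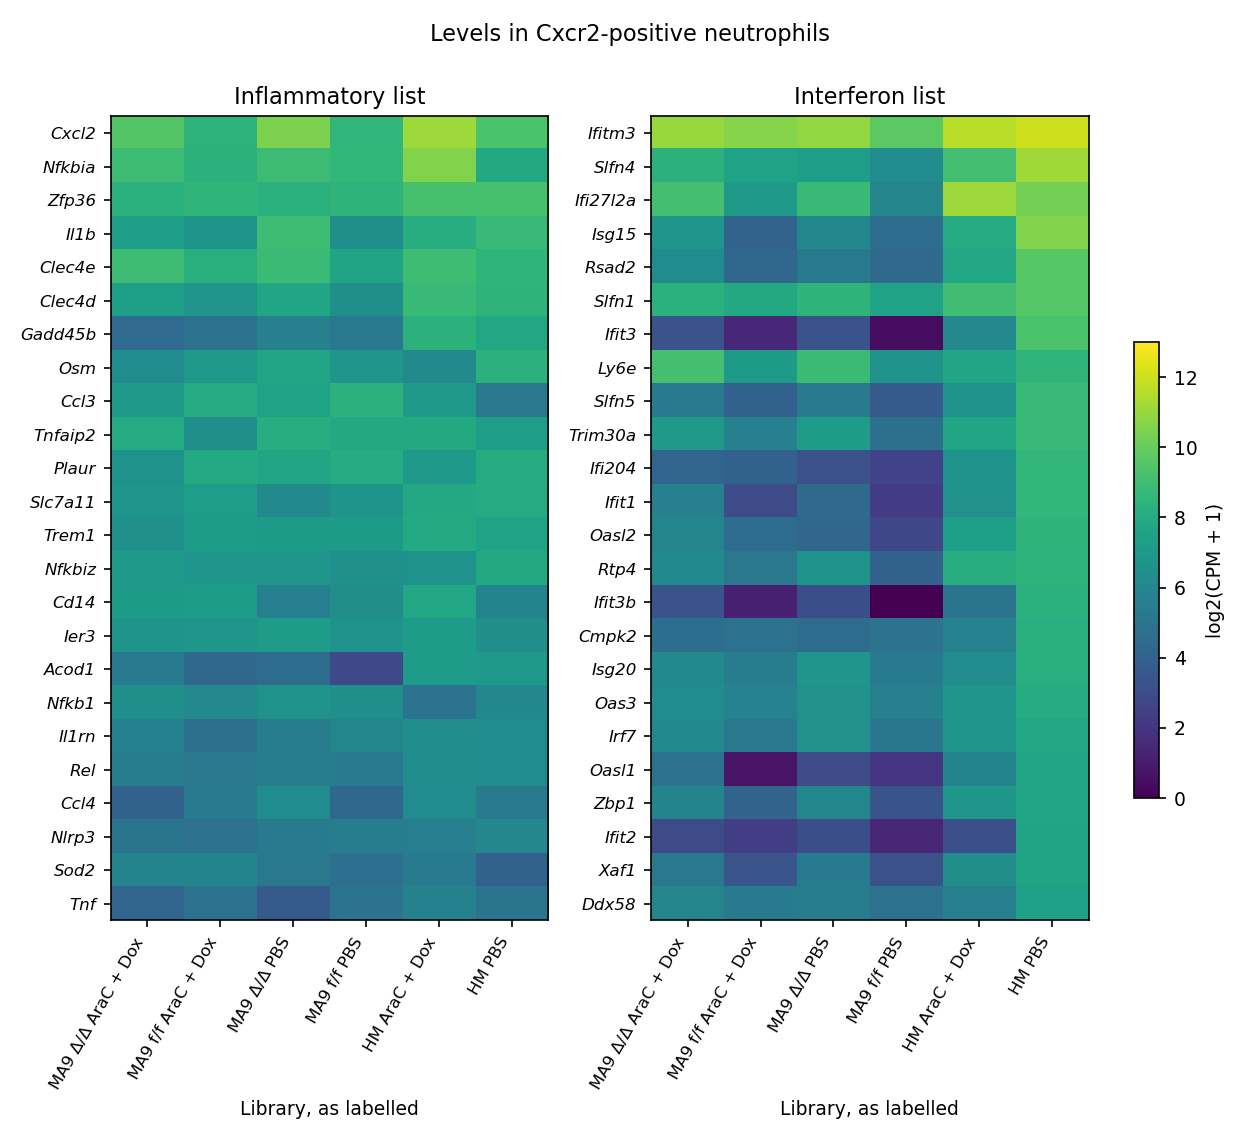
Levels of inflammatory and interferon genes, chosen among those with the highest levels in Cxcr2-positive neutrophils, as log2(CPM + 1) by colour; each column is 1 library and each row 1 gene. Most interferon genes are highest in HM PBS, while Cxcl2 and Nfkbia are highest in HM AraC + Dox.

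The programmes were also counted per cell after thinning to 1000 UMIs. The median cell held 5, 2, 4 and 2 interferon UMIs in MA9 Δ/Δ AraC + Dox, f/f AraC + Dox, Δ/Δ PBS and f/f PBS, 9 in HM AraC + Dox and 17 in HM PBS. At least 3 interferon UMIs were found in 82.8%, 49.6%, 72.6% and 31.0% of the MA9 cells in that order, 94.6% in HM AraC + Dox and 98.5% in HM PBS. In the B-cell-like cells of the MA9 libraries the same share was 60.4%, 40%, 58.8% and 36%, and in those of HM AraC + Dox 40.4%. With 25 B-cell-like cells in each f/f library, their exact intervals ran from 21.1% to 61.3% with AraC + Dox and from 18% to 57.5% with PBS, and the shares of the f/f neutrophils lay within them. In both f/f libraries the neutrophils could thus not be told from the B-cell-like cells at this depth. In the Δ/Δ libraries the neutrophils lay above the B-cell-like cells, at 74.6% to 89.1% against 52.6% to 67.8% with AraC + Dox and 68.5% to 76.4% against 52.4% to 65.0% with PBS, as intervals. They did not lie above the monocyte-like cells, whose shares were 77.7%, 78.4%, 82.1% and 77.3% in MA9 in the same order. In both f/f libraries the neutrophils lay below these. In the Δ/Δ libraries the intervals overlapped, with 68.8% to 85% (AraC + Dox) and 73.4% to 88.9% (PBS) in monocyte-like cells. In HM AraC + Dox the monocyte-like share was 94.6%. The inflammatory list gave median counts of 3, 3, 4 and 3 UMIs in MA9, 6 in HM AraC + Dox and 4 in HM PBS. It was uneven in HM AraC + Dox, where the 10% of cells with the most inflammatory UMIs held 40.1% of them and a single cell reached 136 of its 1000 UMIs. In the other libraries those 10% held 28.3% to 37.1%.

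**Figure D3:**
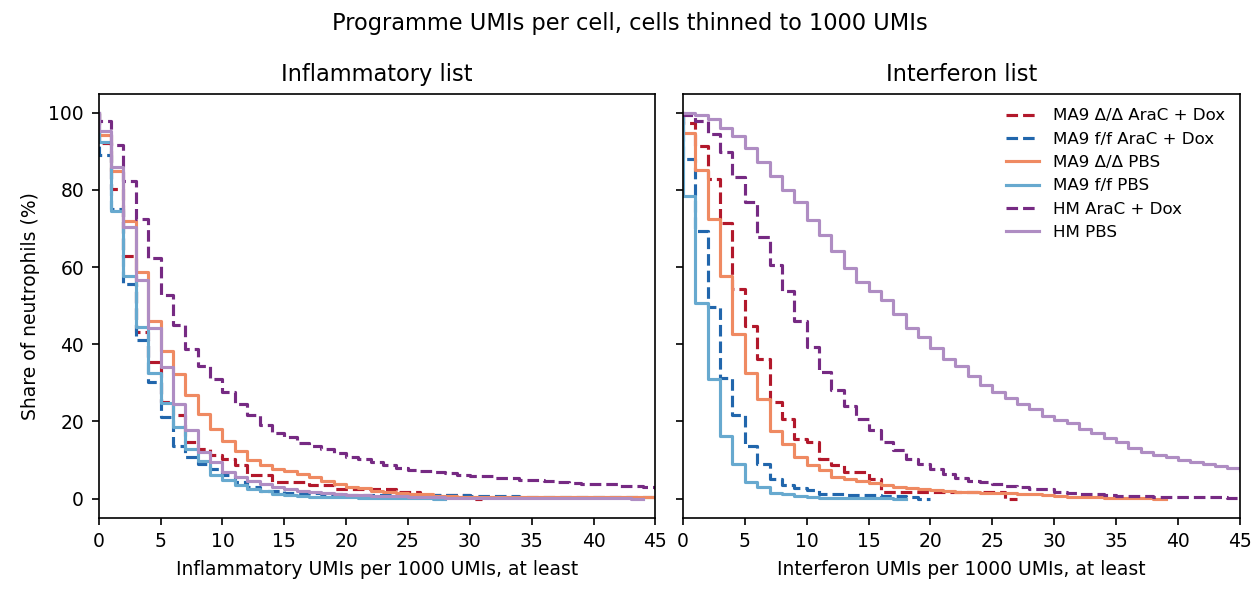
Share of Cxcr2-positive neutrophils (%) with at least the number of programme UMIs on the horizontal axis, each cell thinned to 1000 UMIs, 1 line per library. HM PBS stands apart for interferon UMIs (median 17), and HM AraC + Dox has the longest tail of inflammatory UMIs (up to 136).

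Between the libraries labelled MA9 Δ/Δ PBS and f/f PBS, 154 of 2626 genes at 50 CPM or more in either were at least 2-fold higher in Δ/Δ (5.86%) and 88 lower (3.35%). Ifitm1, an interferon-induced membrane protein, stood at 1392 CPM in Δ/Δ and 22.2 CPM in f/f (log2 ratio 5.97, 5.62 to 6.35). Wfdc17, a small whey-acidic-protein inhibitor, stood at 2474 CPM and 67.5 CPM (5.20, 4.99 to 5.41). Igfbp6, which binds insulin-like growth factors, had 134 UMIs in Δ/Δ and 0 in f/f, where 3 counts were taken as the floor. It stood 86.1-fold above that floor, a log2 ratio of 6.43, and the counting interval of the log2 ratio began lower, at 6.11. Prok2, a chemokine-like prokineticin of marrow neutrophils, stood at 103 CPM and 7.05 CPM, and Bcl3, a nuclear NF-kB cofactor, at 91.3 CPM and 7.39 CPM. Cdkn1a, the p53 target that arrests the cycle, stood at 69.9 CPM in Δ/Δ and 7.39 CPM in f/f (3.24, 2.57 to 3.97). The lower end held granule genes of earlier stages: Fcnb, a ficolin, at 45.3 CPM in Δ/Δ and 554 CPM in f/f, Camp at 2760 CPM and 19989 CPM, and Chil3, a chitinase-like protein, at 305 CPM and 1764 CPM. Ltf, lactoferrin, stood at 1295 CPM in Δ/Δ and 5428 CPM in f/f, and all 10 secondary granule genes were below 0 on the log2 scale (median -1.94). The 8 primary granule genes lay above 0, with a median of 1.03. Of the secondary granule genes 8 were at least 2-fold lower, where 3.18% of all genes at 20 CPM were lower. Of the primary granule genes 5 were at least 2-fold higher, where 6.26% of all genes were higher.

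Between the libraries labelled MA9 Δ/Δ AraC + Dox and f/f AraC + Dox, 298 of 2543 genes were at least 2-fold higher in Δ/Δ (11.7%) and 72 lower (2.83%). Ifitm1 stood at 3459 CPM in Δ/Δ and 173 CPM in f/f (4.32, 4.14 to 4.51), Wfdc17 at 3077 CPM and 331 CPM (3.21, 3.07 to 3.36) and Cdkn1a at 112 CPM and 6.19 CPM (4.17, 3.18 to 5.32). These 3 genes were named by the same rule in the PBS pair, and no library is common to the 2 pairs. Igfbp6 had 43 UMIs in Δ/Δ and 1 in f/f, a log2 ratio of 7.28 whose counting interval ran from 4.72 to 12.6. Camp stood at 4226 CPM in Δ/Δ and 23531 CPM in f/f, Ltf at 1388 CPM and 6531 CPM, and Lyz2, lysozyme, at 2544 CPM and 13858 CPM. Of 8 measured p53 targets, 5 were at least 2-fold higher in Δ/Δ and 0 lower (median 1.31), where 13.4% of all genes at 20 CPM were higher. In the cells low in Camp and Ngp the p53 median was 0.41. Some high ranks came from few cells: Vcan UMIs lay in 1 cell, and F13a1 UMIs in 10 cells with 38.9% of them in 1. In the cells low in Camp and Ngp the log2 ratio of Ltf was 1.74 and that of Cxcl2 -0.062, so both directions turned.

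Within MA9 f/f, AraC + Dox against PBS gave few differences, with 23 of 2372 genes at least 2-fold higher (0.97%) and 50 lower (2.11%). Upp1, uridine phosphorylase, stood at 61.9 CPM with AraC + Dox and 5.04 CPM with PBS (3.62, 2.83 to 4.51), Ifitm1 at 173 CPM and 22.2 CPM, and Wfdc17 at 331 CPM and 67.5 CPM. Lower with AraC + Dox were Hk2, hexokinase, at 39.0 CPM against 117 CPM with PBS, Fcnb at 204 CPM against 554 CPM, and Olfm4, a secondary granule protein of a neutrophil subset, at 543 CPM against 1390 CPM. Within MA9 Δ/Δ, 91 of 2689 genes were at least 2-fold higher with AraC + Dox than with PBS (3.38%) and 80 lower (2.98%). Chil3 stood at 1194 CPM with AraC + Dox and 305 CPM with PBS (1.97, 1.79 to 2.15), while 45.7% of the Fcnb UMIs behind its higher value came from 1 cell. Lower with AraC + Dox were Apoe, apolipoprotein E, at 33.5 CPM against 240 CPM with PBS, and Ccl4, a chemokine, at 15.7 CPM against 79.0 CPM, the last on 7 UMIs. Scaling by the median of gene ratios rather than by totals shifted log2 ratios by 0.13 and 0.19 in the genotype pairs with PBS and with AraC + Dox, and by -0.13 in f/f by treatment.

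In HM, AraC + Dox against PBS gave 243 of 2126 genes at least 2-fold higher (11.4%) and 221 lower (10.4%). Among the higher, Mt1, a metallothionein, stood at 267 CPM with AraC + Dox and 8.20 CPM with PBS (5.03, 4.59 to 5.50). Hilpda, a lipid droplet protein induced by hypoxia, stood at 125 CPM and 3.12 CPM, Bhlhe40, a transcriptional repressor, at 110 CPM and 4.49 CPM, and Id3, an inhibitor of helix-loop-helix factors, at 55.2 CPM and 0.976 CPM. The lower end was taken by interferon genes, with Ifit2 at 8.13 CPM with AraC + Dox and 191 CPM with PBS, Stat2 at 16.5 CPM and 155 CPM, and Ifit3 as above. Of 5 measured stefins, cysteine protease inhibitors abundant in mouse neutrophils, all were above 0, among them Stfa3 at 1397 CPM and 533 CPM (1.39, 1.33 to 1.45); as near-identical copies they may share reads. The 7 measured primary granule genes were also above 0 (median 1.80), as were 6 of 7 p53 targets (median 1.08), with Cdkn1a at 85.9 CPM with AraC + Dox and 18.2 CPM with PBS. At least 2-fold higher were 3 of the stefins, 5 of the primary granule genes and 4 of the p53 targets. Of all genes at 20 CPM 12.2% were so. The p53 targets did not rise with AraC + Dox in every pair. In MA9 f/f their median was -0.32 (2 of 6 above 0), where that of all genes was -0.19. In MA9 Δ/Δ it was 0.45 (7 of 8 above 0), where that of all genes was -0.055. In either MA9 pair 0 p53 targets were at least 2-fold higher, against 1.06% (f/f) and 4.83% (Δ/Δ) of all genes. Jchain, the joining chain of secreted antibodies, ranked highest, at 456 CPM with AraC + Dox, where 48.9% of its UMIs lay in 1 cell, and 0.976 CPM with PBS.

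Pairs were also fitted together, with the pair as a block, in edgeR's quasi-likelihood test on UMI sums per library, an analysis chosen after the values were seen. For AraC + Dox over PBS (3 pairs, 2 residual degrees of freedom) 0 of 7675 genes were higher (0%) and 0 lower (0%) at an adjusted p under 0.05 (edgeR, Benjamini-Hochberg). At an unadjusted p under 0.05, 395 were higher and 289 lower, and DESeq2 called 27 higher and 0 lower after adjustment. Without the HM pair edgeR called 68 higher and 34 lower, on 1 residual degree of freedom. Cxcl2 (0.29, SE 0.44, edgeR adjusted p = 0.85), Isg15 (-0.85, SE 0.61, adjusted p = 0.66) and Nfkbia (0.82, SE 0.50, adjusted p = 0.62) did not pass over the 3 pairs. The lowest adjusted p, 0.18, was that of S100a4, a calcium-binding protein (2.09, SE 0.25).

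For the libraries labelled MA9 Δ/Δ over those labelled f/f (2 pairs, 1 residual degree of freedom), edgeR called 364 of 7345 genes higher (4.96%) and 347 lower (4.72%), while DESeq2 called 43 higher and 43 lower. Ifitm1 was higher by 4.85 (SE 0.30, edgeR adjusted p = 2.5e-16), Wfdc17 by 3.96 (SE 0.31, adjusted p = 4.3e-13), Cdkn1a by 3.39 (SE 0.31, adjusted p = 5.9e-11) and Isg15 by 1.74 (SE 0.28, adjusted p = 1.5e-05). Each of these 4 genes was higher in Δ/Δ in both pairs. Cxcl2 was higher by 1.29 (SE 0.23, edgeR adjusted p = 6.4e-05) and Ptpn6 lower (-0.84, SE 0.22, adjusted p = 0.0066), while Nfkbia did not pass (0.20, SE 0.21, adjusted p = 0.66). These values rest on 4 libraries. With 1 residual degree of freedom the SEs and p-values draw on a spread shared over genes. They are thus no measure of how alike the 2 pairs were. The pairs with PBS and with AraC + Dox gave log2 ratios of 5.97 and 4.32 for Ifitm1 and of 5.20 and 3.21 for Wfdc17. These lie further apart than the SEs. The share of cells low in Camp and Ngp moved with the genotype label in both pairs, and its part was not tested.

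Within each library, cells low in Camp and Ngp (under 0.5% of UMIs) were set against the other Cxcr2-positive neutrophils; this limit was chosen after values were seen. They carried more of both programmes in all 6 libraries. Cxcl2 stood at 1121, 1171, 1735 and 1127 CPM in the low cells of MA9 Δ/Δ AraC + Dox, f/f AraC + Dox, Δ/Δ PBS and f/f PBS, against 175, 141, 419 and 212 CPM in the other cells of these libraries. In HM it stood at 4476 CPM in low cells against 1473 CPM in the others with AraC + Dox, and at 1068 CPM against 270 CPM with PBS. Isg15 stood at 2115 CPM in the low cells of HM PBS against 974 CPM in the others, and at 393 CPM against 207 CPM in HM AraC + Dox. The log2 ratio of summed UMIs was 0.89 to 1.23 for the inflammatory list, 0.35 to 0.86 for the interferon list and 0.42 to 0.91 for the major histocompatibility class I list. Receptor and adhesion (0.25 to 0.59), survival and death (0.53 to 0.78), transcription factor (0.40 to 0.72) and immediate early lists (0.36 to 1.31) rose too. The S100 (-0.67 to -0.20) and NADPH oxidase lists (-0.49 to -0.19) fell. A rise like that of the interferon list was thus common to several lists, and the ratio over all genes was not computed. The secondary granule list, which holds the genes of the split, lay at -3.65 to -2.66, and the primary granule list at 0.61 to 1.67. Srgn, a serglycin gene, weighs heavily in the primary list, with 2939 of its 3510 CPM in HM AraC + Dox. The 5 promyelocyte markers alone were lower in low cells of MA9 f/f AraC + Dox, at 263 CPM against 751 CPM. In MA9 Δ/Δ AraC + Dox they stood at 1114 CPM against 977 CPM, and in each remaining library they were higher in low cells. Because the share of low cells differs between libraries, it moves with the ratios between them; its part in each was not tested.

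**Figure D4:**
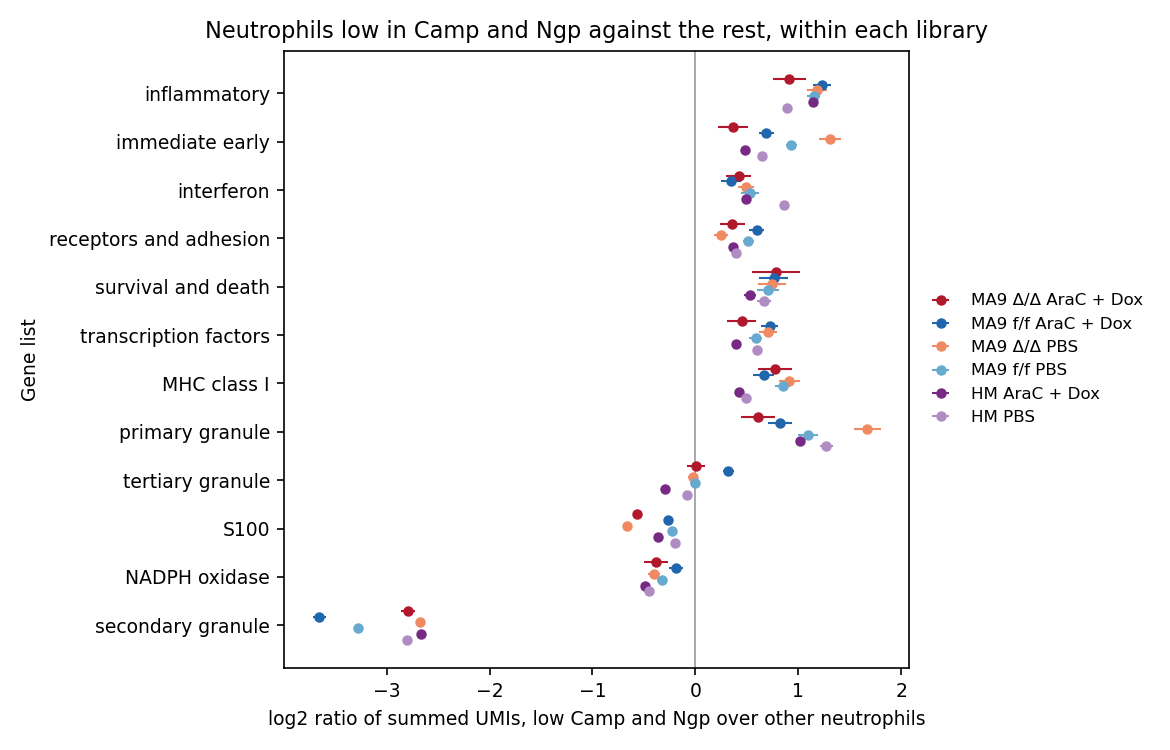
Log2 ratio of the summed UMIs of selected gene lists, neutrophils low in Camp and Ngp over the other Cxcr2-positive neutrophils of the same library. Bars are 95% counting intervals, and each point is 1 library. The stefin, p53 target, Shp-1 and partners, glycolysis and leukaemia gene lists are not drawn. Some of these differed in sign between libraries. The stefin list lay at -0.98 in MA9 Δ/Δ AraC + Dox and 0.61 in MA9 f/f AraC + Dox. The glycolysis list lay at 0.20 in MA9 Δ/Δ AraC + Dox and -0.29 in HM AraC + Dox. The inflammatory list lies between 0.89 and 1.23 in all 6 libraries, and the interferon list between 0.35 and 0.86.

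The Cxcr2-positive neutrophils were next compared with immature neutrophils of the same library (no Cxcr2 or cycle gene UMI and at least 20 UMIs of Camp and Ngp), as sums per library with the library as a block in edgeR's quasi-likelihood test over 6 libraries. Both kinds of cell were sorted by transcripts of the same cells, so an adjusted p (Benjamini-Hochberg) states how steady a difference was over libraries and is no independent test; genes of either rule are not counted. On the sum of the 8 mature neutrophil markers the immature cells were not set apart in every library. They stood at 214499 CPM against 213080 CPM in Cxcr2-positive neutrophils in MA9 Δ/Δ AraC + Dox, and 334335 against 339530 CPM in HM PBS. In MA9 f/f AraC + Dox the values were 139775 against 305154 CPM, and in f/f PBS 210461 against 279943 CPM. In MA9 Δ/Δ PBS they were 188732 against 223118 CPM, and in HM AraC + Dox 188569 against 299930 CPM. Of 7851 genes, 1862 rose in Cxcr2-positive neutrophils (23.7%) and 1825 fell (23.2%). Of 30 inflammatory genes tested, 23 rose (median 1.06); of 42 interferon genes, 34 rose and 1 fell (median 1.11), and over all genes the median was -0.0096. Cxcl2 rose by 3.14 on the log2 scale (SE 0.35, adjusted p = 6.8e-05), in 6 of 6 libraries. Isg15 rose by 1.32 (SE 0.13, adjusted p = 5.0e-05, 6 of 6), and the interferon gene that fell was Bst2, tetherin (-0.49, SE 0.18, adjusted p = 0.043). The difference held at very unequal levels: Isg15 stood at 1511 CPM in Cxcr2-positive against 866 CPM in immature neutrophils of HM PBS, and at 24.2 CPM against 10.5 CPM in MA9 f/f PBS.

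Of 24 receptor and adhesion genes 22 rose, among them Csf3r (1.96, SE 0.12), Fpr1, the formyl peptide receptor (2.40, SE 0.32), and Ccr1, a chemokine receptor (2.04, SE 0.31). Of 8 primary granule genes 7 fell, among them Elane, neutrophil elastase (-2.71, SE 0.49, 5 of 6 libraries), and Mpo, myeloperoxidase (-1.60, SE 0.29), while Srgn, the granule proteoglycan serglycin, rose (0.81, SE 0.19). Of 8 secondary granule genes 3 fell, with Fcnb (-2.37, SE 0.36) and Chil3 (-1.30, SE 0.32) among them, and of 6 tertiary granule genes 5 rose. Of 14 transcription factors 9 rose and 2 fell, with Mxd1, a MYC antagonist of terminal differentiation (1.72, SE 0.26), and Cebpb (1.34, SE 0.14) up and Gfi1, a repressor needed early in the lineage (-1.52, SE 0.25), down. Ptpn6 rose by 0.56 (SE 0.20, adjusted p = 0.040), and of 13 genes of Shp-1 and its partners 7 rose and 2 fell. Of 16 immediate early genes 11 rose and 1 fell, of 14 survival and death genes 8 rose and 2 fell, of 19 glycolysis genes 7 rose and 1 fell, and of 13 class I genes 5 rose. Of 9 p53 targets 2 rose and 2 fell, and 2 of 6 rose among the stefins, the S100 genes and the NADPH oxidase genes alike.

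Among the largest steady increases over all genes were Ccl6, a chemokine (3.72, SE 0.43), Jaml, an adhesion molecule of migrating neutrophils (3.70, SE 0.51), Wfdc17 (3.61, SE 0.36) and Ifitm1 (3.44, SE 0.32). The largest falls held Xrcc6, the DNA end-binding protein Ku70 (-2.68, SE 0.39), and Ms4a3, a gene of granulocyte progenitors (-2.40, SE 0.32).

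**Figure D5:**
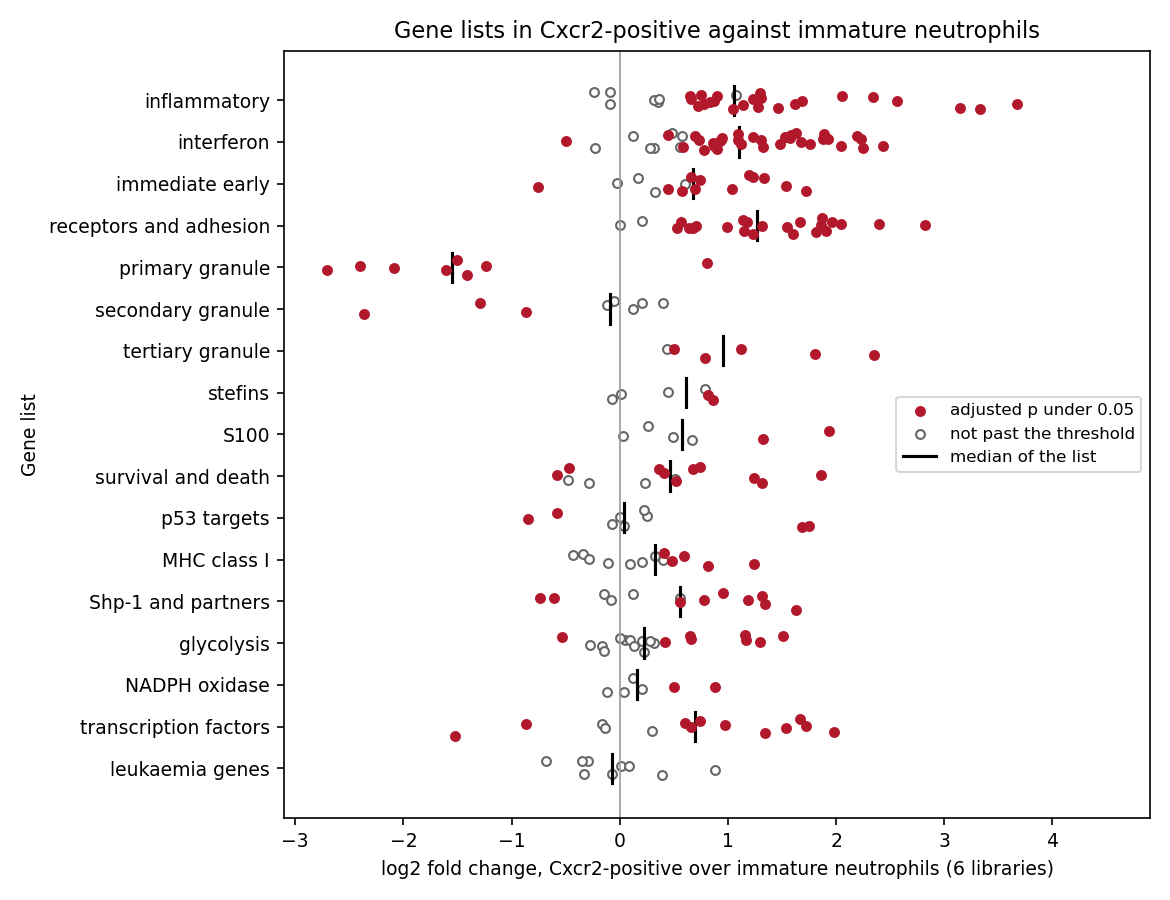
Log2 fold change of each tested list gene, Cxcr2-positive over immature neutrophils, from UMI sums of 6 libraries; filled points passed an adjusted p of 0.05, open points did not, and black bars are list medians. Inflammatory (median 1.06), interferon (1.11) and receptor genes lie to the right, primary granule genes (-1.55) to the left.

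Against monocyte-like cells (named from Csf1r with Fn1 and F13a1, in the 5 libraries with at least 20 of them, thus without HM PBS), 2468 of 7897 genes rose in Cxcr2-positive neutrophils (31.3%) and 2567 fell (32.5%). All 10 secondary granule genes, all 6 NADPH oxidase genes and all 5 tested stefins rose. Of 32 inflammatory genes 20 rose and 6 fell: Cxcl2 rose by 2.67 (SE 0.35, adjusted p = 5.1e-05), while Ccl3 (-0.56, SE 0.21), Ccl4 (-0.95, SE 0.34) and Icam1, an adhesion ligand (-0.90, SE 0.28), were among those that fell. Interferon genes were split, with 14 of 43 rising and 9 falling (median 0.29). Rsad2 rose by 3.34 (SE 0.25) and Isg15 by 1.32 (SE 0.31), Bst2 fell by 2.42 (SE 0.17), and Ifit3 did not pass (0.41, SE 0.54, adjusted p = 0.53). Prok2 (7.70, SE 0.38) and Inhba, an activin subunit (8.14, SE 0.46), were among the largest increases, and Cx3cr1, the fractalkine receptor of monocytes (-4.41, SE 0.22), among the largest falls. Glycolysis genes rose in 14 of 19 cases with 1 falling, whereas Pfkp, the platelet form of phosphofructokinase, fell by 0.42 (SE 0.16, adjusted p = 0.035) here and did not pass against immature neutrophils (0.22, SE 0.17, adjusted p = 0.32).

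UMIs of Hoxa9 and Meis1, homeobox genes of the leukaemia programme, were seen in Cxcr2-positive neutrophils of MA9 and hardly in HM. HM was itself initiated with Hoxa9 and Meis1. Whether a 3′ tag counts the introduced copies was not tested, so low HM values do not show that these genes were absent. Hoxa9 stood at 121, 68.7, 170 and 127 CPM in MA9 Δ/Δ AraC + Dox, f/f AraC + Dox, Δ/Δ PBS and f/f PBS, at 0.813 CPM in HM AraC + Dox and at 3.91 CPM in HM PBS. It stood at 121 CPM in the neutrophils against 118 CPM in the B-cell-like cells of MA9 Δ/Δ AraC + Dox, and at 170 CPM against 83.4 CPM in MA9 Δ/Δ PBS. Meis1, its cofactor, stood at 143 CPM against 49.1 CPM and at 240 CPM against 64.9 CPM in the same libraries. B-cell-like cells thus showed these transcripts too, and free RNA as their source was not tested. Low HM values were not particular to the neutrophils. In monocyte-like cells the 9 listed leukaemia genes summed to 102 CPM in HM AraC + Dox and 115 CPM in HM PBS. In those of MA9 they summed to 1204 to 1575 CPM.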

How the data were processed

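The 6 Chromium 3′ libraries (kit given as v2) of mouse marrow, 1 per group, were read. The authors deposited matrices of unnormalised whole UMI counts, genes by barcodes; per the submitters' processing notes they came from Cell Ranger 3.0.2 with mm10. The headers of the MA9 matrices name that version, and those of the HM matrices name no software; 31053 features are listed for MA9 and 32285 for HM. Groups come from the labels.

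UMIs of the chosen cells were added up within each library and expressed per 1000000 (CPM). Ratios between libraries carry exact conditional Clopper-Pearson 95% intervals, and a difference of 2-fold at 50 CPM or more in either library (20 CPM for gene lists), with an interval without 0, is a rule of size; a gene without UMIs took 3 counts as its floor, per library. PCR duplicates are collapsed by UMIs, yet cells of a library are not replicates, and intervals and floors cover counting error only. Sums per library and kind of cell were tested with edgeR 4.0.16 in R 4.3.3 (quasi-likelihood, TMM, filterByExpr, library as block, Benjamini-Hochberg over all genes tested, threshold 0.05), after a check on simulated counts with 200 changed genes. Pairs of libraries were fitted in the same way, with the pair as block: AraC + Dox over PBS in 3 pairs and MA9 Δ/Δ over f/f in 2. SEs were taken from the F statistic and are approximate. The labels do not say that libraries are separate cultures or mice, so p-values speak for these libraries alone. They draw on a spread that edgeR shares over genes. This holds most for the fits over pairs, with 2 or 1 residual degrees of freedom.

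Cells were thinned once to 1000 UMIs with a fixed seed, shallower ones being left out. Scrublet in scanpy 1.11.5 marked 3 to 29 of the chosen cells a library as doublets; in 4 libraries its own threshold did not work, and the mean of the other 2 libraries, 0.195, was used, a choice made after seeing the data. Doublets were left in, and taken out as an alternative. B-cell-like cells were chosen by B cell markers, with at least 2 UMIs of Cd79a and Cd79b among them; monocyte-like cells carried at least 1 UMI of Csf1r and 2 of Fn1 and F13a1, with no Cxcr2 or cycle gene UMI.

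Members and the 17 gene lists were chosen with earlier results of these data known. Genes named are the rule genes, Cxcl2, Ptpn6 and Pfkp, the 10 highest and 10 lowest of each pair, list members by size, and the largest steady changes between kinds of cell. Genes of mitochondria, ribosomes, haemoglobin, the sex chromosomes, antibodies and T cell receptors were counted but not named from rankings. Some genes are not reported here. Alternatives were DESeq2 1.42.0, no filter, no block, each library left out, other limits of the rule, other scaling and level minimums.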

Additional observations from a re-analysis of the deposited data

Results flagged for a closer look

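AraC + Dox against PBS went opposite ways in HM and in MA9 for 3 values, with 1 library per group, and the differences between models were not tested. The median log2 ratio of the interferon list was -1.94 in HM, against 0.078 in MA9 Δ/Δ and 0.26 in MA9 f/f. The MA9 Δ/Δ median lay near 0, with 19 genes above 0 and 14 below. Of 18 interferon genes measured in all 3 pairs, 5 were lower in HM and higher in both MA9 pairs, and 0 were the reverse. Of 21 inflammatory genes 3 were lower in HM and higher in both MA9 pairs, and 5 were the reverse. The share over all genes was not counted, so these counts are a description. Cxcl2 had a log2 ratio of 1.78 in HM, against -0.87 in MA9 Δ/Δ and -0.19 in MA9 f/f. The median of the stefin genes was 1.05 in HM, against -0.23 in MA9 Δ/Δ and -0.61 in MA9 f/f. In cells with under 0.5% of their UMIs in Camp and Ngp, Cxcl2 stood at 2.07 in HM, against -0.63 in MA9 Δ/Δ and 0.055 in MA9 f/f, and the stefin median at 0.71 in HM, against -0.54 in MA9 Δ/Δ and 0.45 in MA9 f/f. For MA9 f/f the opposite direction thus did not hold in those cells.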

How the results depend on the processing

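Of the 218 settings tried on shares, counts of genes and list medians, 163 left the value on its side of its threshold and within its error or 1.5 times its count. With cells thinned to 1000 UMIs the shares were 0.821%, 1.73%, 3.56% and 4.32% in MA9 Δ/Δ AraC + Dox, f/f AraC + Dox, Δ/Δ PBS and f/f PBS, 14.4% in HM AraC + Dox and 30.8% in HM PBS. With 2 Cxcr2 UMIs required they were 0.932%, 2.24%, 3.94%, 5.29%, 23.7% and 35.2% in the same order. A mitochondrial limit of 20% gave 33.5% in HM AraC + Dox and 26.9% in HM PBS, so the direction of that pair turned, and leaving Il1b out of the rule gave 5.04% in MA9 Δ/Δ PBS. A level minimum of 10 CPM gave 510 higher and 238 lower (Δ/Δ over f/f, PBS), 822 and 137 (Δ/Δ over f/f, AraC + Dox), 85 and 262 (AraC + Dox over PBS, f/f), 315 and 220 (Δ/Δ) and 723 and 517 (HM), and an inflammatory median of 0.0016 in Δ/Δ by treatment; more genes are tested there. Median-of-ratios scaling gave 113 lower (Δ/Δ over f/f, AraC + Dox) and 36 higher and 33 lower (f/f by treatment), an inflammatory median of 0.12 in f/f by treatment, and an interferon median of 0.97 in Δ/Δ over f/f with AraC + Dox. In that genotype pair, 2 Cxcr2 UMIs gave an interferon median of 0.69 and an inflammatory median of -0.080, and in f/f by treatment 81 genes lower and an inflammatory median of 0.083. The inflammatory median of f/f by treatment was 0.015 with every cell weighing the same and 0.070 without doublets, and 131 genes were lower in Δ/Δ by treatment with every cell weighing the same. Cells low in Camp and Ngp, an alternative chosen after seeing the data, gave 171 genes lower in Δ/Δ over f/f with AraC + Dox, 57 higher and 149 lower in f/f by treatment, and 383 higher in HM. Their inflammatory medians were -0.21 and -0.48 in the genotype pairs (PBS and AraC + Dox), 0.038 in f/f by treatment and 1.05 in HM, and the interferon median of Δ/Δ over f/f with AraC + Dox was 0.995. In these cells the log2 ratios of Clec4d (-0.17) and Ccrl2 (-0.021) turned in Δ/Δ over f/f with PBS, and those of Cxcl2 (-0.062), Cd300ld (-0.25) and Ltf (1.74) with AraC + Dox. Prtn3 (-1.04), Ly6g5b (0.37) and Cldn1 (0.27) turned in f/f by treatment and Ms4a3 (-0.048) in Δ/Δ by treatment, where Bcl2 (0.89) turned without doublets. The cause of these changes was not tested. Leaving out each library in turn, 1489 to 1892 genes rose and 1286 to 1919 fell against immature neutrophils, and 2080 to 2509 rose and 2106 to 2514 fell against monocyte-like cells. Without the library block, 404 rose and 492 fell against immature neutrophils. For the fits over pairs, DESeq2 called 27 genes higher with AraC + Dox, where edgeR called 0, and 43 higher and 43 lower in Δ/Δ over f/f, where edgeR called 364 and 347. Leaving out each pair in turn, edgeR called 0 to 68 genes higher and 0 to 34 lower with AraC + Dox. The 116 cells of MA9 Δ/Δ AraC + Dox limit the precision of both its pairs.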
